A study of Mus musculus with 38 samples.

Results

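Cap analysis of gene expression (CAGE) was used to follow the promoters of 9 insulin and insulin-like growth factor (IGF) signalling genes in mouse soleus during fasting-induced torpor: Igf1, Igfbp5, Igf1r, Insr, Irs1, Irs2, Pik3r1, Akt1 and Akt2. CAGE reads the capped 5′ end of each RNA, so each tag stands for the start of a transcript and neighbouring start sites form a cluster that is treated as a promoter. A cluster was taken as a promoter of a gene when the base with the most tags lay within 500 bp, on the same strand, of a 5′ end of that gene in GENCODE vM21. By this rule 8 of the 10819 clusters in the table belonged to 7 of the 9 genes. Akt2 had 2 promoters, and Igf1, Igfbp5, Insr, Irs2, Pik3r1 and Akt1 had 1 each. Igf1r and Irs1 had none within the window.

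The animals were young adult male C57BL/6J mice, with no transgene or deletion in any group, and each library came from the soleus, a slow postural muscle of the hind limb. Experiment 1 held 28 libraries. There were 4 Pre (day 1, food freely available), 8 Mid (day 2, food withdrawn to induce torpor) and 4 Post (day 3, food returned). The study reports widely differing metabolic rates in Mid, whose mice were either in torpor or between bouts, so Mid is a mixed group. On day 2 there were also 4 HiT (fasted at a high ambient temperature that prevents torpor) and 4 Fed (at the low temperature with food left in place). The last 4 were Dep (day 2, fasted and kept out of torpor by gentle touching). For HiT the deposited design text speaks of food being present, whereas the study's methods describe fasting, and the latter is followed here. For Fed the design text and the methods give food, whereas the condition tag reads starvation. Experiment 2 was a separate batch of mice with 2 Pre, 5 Mid and 3 Post libraries, and was normalised and tested on its own.

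Insulin and IGF-1 bind related receptor tyrosine kinases, encoded by Insr and Igf1r, which phosphorylate the adaptors IRS1 and IRS2. These recruit phosphoinositide 3-kinase, whose main regulatory subunit is encoded by Pik3r1, and the lipid it makes activates the kinases AKT1 and AKT2. In muscle this route drives glucose uptake and protein synthesis and keeps the FOXO transcription factors out of the nucleus, and IGF-binding proteins such as IGFBP5 hold the ligand in the tissue.

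The promoters of Irs2 and Igfbp5, which moved in opposite directions from Pre to Mid, are shown first. Of the 4 members called in Mid against Pre they were the ones whose most used start base lay inside a RefSeq promoter sequence. Both lines run 5′ to 3′ on the minus strand of GRCm38.p6 and end at the base with the most tags, which is the last letter and is in capitals. Other capitals mark the E-box CACGTG.
Irs2, chr8:11008931-11009179: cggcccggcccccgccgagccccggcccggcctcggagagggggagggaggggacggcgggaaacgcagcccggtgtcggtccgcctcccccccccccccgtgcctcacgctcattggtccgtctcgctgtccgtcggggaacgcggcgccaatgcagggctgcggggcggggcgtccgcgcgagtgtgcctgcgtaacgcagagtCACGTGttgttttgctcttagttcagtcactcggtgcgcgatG
Igfbp5, chr1:72874886-72875115: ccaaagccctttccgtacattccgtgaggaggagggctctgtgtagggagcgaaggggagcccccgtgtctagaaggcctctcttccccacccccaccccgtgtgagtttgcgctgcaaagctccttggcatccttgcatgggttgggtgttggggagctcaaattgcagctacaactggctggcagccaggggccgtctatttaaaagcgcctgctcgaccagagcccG

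The Irs2 stretch was 73.1% G or C over 249 bases and held 34 CpG dinucleotides. The Igfbp5 stretch was 60.4% G or C over 230 bases and held 10. The E-box of Irs2 began 42 bases upstream of its main start base. For 6 of the member genes RefSeq promoter windows were at hand (250 bases before to 50 after a start site), and 5 motifs were searched on both strands: the forkhead letters GTAAACA, the E-box CACGTG, the cyclic AMP element TGACGTCA, the TATA box TATAAA and the palindromic glucocorticoid element. Of all 32851 RefSeq windows, 7.15% held the E-box, 3.65% the forkhead letters, 13.6% the TATA box, 1.79% the cyclic AMP element and 0.00913% the glucocorticoid element. Besides the E-box of Irs2, matches were found in windows of Akt1 (forkhead) and Pik3r1 (TATA box), each at a RefSeq start site other than the one where the tags lay. None of the 5 motifs, as spelled, was found in the Igfbp5 window. The printed Igfbp5 stretch does hold the letters tatttaaaa, which resemble the TATA box, but variants of the motifs were not searched.

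The positions below are in mm10. The Igf1 promoter spanned chr10:87859019-87859409 on the plus strand, with its main start base 92 bp from the nearest annotated 5′ end and 1945 bp from the nearest RefSeq start. The Insr promoter spanned chr8:3279058-3279695 on the minus strand, 4 bp from an annotated end, and the Igfbp5 promoter chr1:72873821-72874950, 2 bp from an annotated end. The Irs2 promoter, chr8:11007568-11009031, was the member nearest to the limit of the rule, since its main start base lay 473 bp upstream of the GENCODE end but 2 bp from the RefSeq start. The Pik3r1 promoter spanned chr13:101767798-101768295 and the Akt1 promoter chr12:112673778-112674484, both on the minus strand. The Akt2 promoters lay on the plus strand at chr7:27591485-27592176, called upstream here, and chr7:27605728-27605902, called downstream.

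Depth was 18257657 to 39176649 tags per library inside the clusters in experiment 1 and 9359994 to 20914855 in experiment 2. Levels are given as CPM, the tag count of a promoter scaled to a common library total after TMM (trimmed mean of M values) normalisation. Where groups are said not to overlap, this only describes the libraries, since the share of all promoters that separate likewise was not counted. Promoters of all 6 slow fibre markers were detected in every group, with a summed level of 4463 to 8195 CPM in experiment 1. One HiT library (replicate 4) had the lowest TMM factor, 0.679 against up to 1.21 in the others. In Dep replicate 1 the 4 neutrophil markers summed to 132.6 CPM, against at most 1.6 in the other 27 libraries. In Fed replicate 2 the 3 measured red cell markers summed to 8503. Counts for HiT, Dep and Fed are therefore also given without those libraries. The 6 fast fibre markers summed to 8073 in Fed replicate 1, against a Fed median of 5040, and no member call changed without that library. In Pre replicate 2 the 4 Schwann cell markers summed to 742.6, against a Pre median of 147.9. In Mid replicate 1 the 6 adipocyte markers summed to 522.9. In Mid replicate 2 the fast fibre markers summed to 7074, against a Mid median of 4319. No member called in Mid against Pre lost its call when Pre replicate 2, Mid replicate 1 or Mid replicate 2 was left out.

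**Figure D1:**
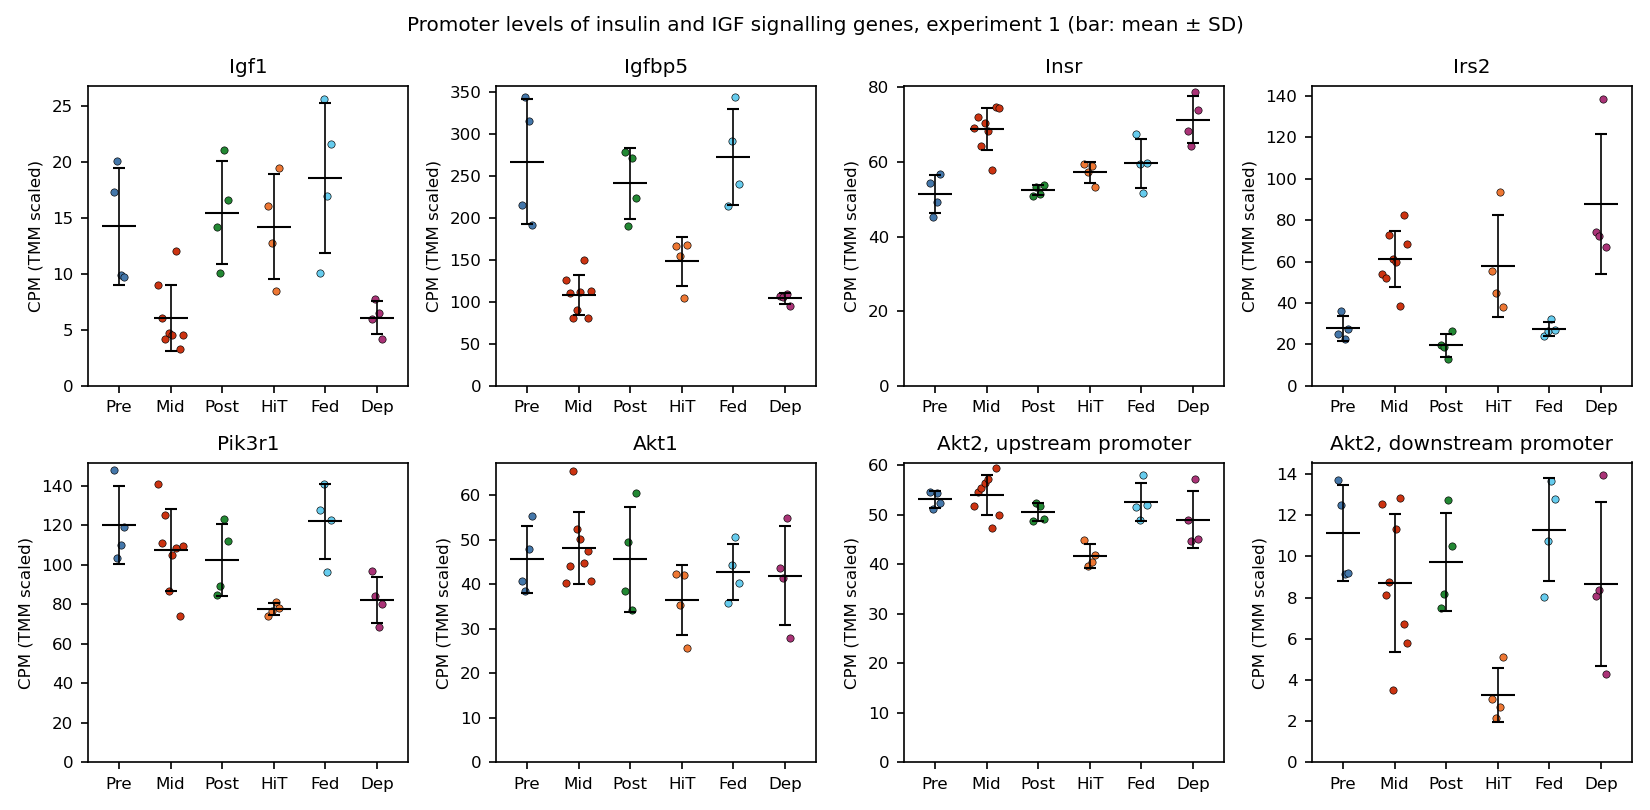
Level of the 8 member promoters in each library of experiment 1, in CPM after TMM scaling, by group; points are libraries, and the bar and whiskers are the mean and SD. The 8 Mid libraries lie above all 4 Pre libraries for Insr and Irs2 and below all of them for Igfbp5, whereas the 4 HiT libraries lie below all Pre and Mid libraries for the upstream Akt2 promoter.

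Torpor was first compared with the day before fasting, which asks what changed between Pre and Mid. In the soleus of Mid mice the receptor and adaptor promoters Insr and Irs2 rose, while those of the growth factor Igf1 and its binding protein Igfbp5 fell. Pik3r1, Akt1 and both Akt2 promoters did not pass the test. Thus 4 of the 8 member promoters were called at a false discovery rate (FDR) of 0.05 with edgeR's quasi-likelihood test, 2 higher and 2 lower, where 30.2% of all 10776 promoters tested were called. The median log2 fold change of the 8 was -0.07, against 0.01 over all promoters.

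Igf1 encodes the growth factor IGF-1, which muscle makes for local use. Its promoter gave 17.3, 20.1, 9.90 and 9.75 CPM in the 4 Pre libraries. In the 8 Mid libraries the lowest was 3.30, the median 4.66 and the highest 12, and 7 of the 8 lay below every Pre library. The level in Mid was 0.424 times that in Pre (log2 fold change -1.24 ± 0.30 SE, edgeR FDR 0.0026). The exception was Mid replicate 6, at 12, and without it the log2 fold change was -1.44.

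Igfbp5 encodes the most abundantly transcribed of the members, a secreted protein that binds IGF-1 in the extracellular matrix. The Pre libraries gave 216, 344, 316 and 192 CPM, whereas the Mid libraries ran from 80.8 through a median of 111 to 150.4. The groups did not overlap. The level in Mid was 0.405 times that in Pre (log2 fold change -1.30 ± 0.17 SE, edgeR FDR 2.5e-06).

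Insr encodes the insulin receptor. Its promoter gave 54.4, 45.2, 49.4 and 56.8 CPM in Pre, and 57.9, 69.9 and 74.7 as the lowest, median and highest of the 8 Mid libraries. Again no Mid library fell inside the range of Pre, but the shift was modest, 1.34 times the Pre level (log2 fold change 0.42 ± 0.08 SE, edgeR FDR 0.00014). Without TMM scaling the change in Insr was 0.35 with an FDR of 0.133.

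Irs2 encodes the insulin receptor substrate whose transcription is known to respond to fasting. Its promoter gave 24.9, 36.2, 22.8 and 27.2 CPM in Pre. The Mid libraries ran from 38.8 through a median of 60.4 to 82.4, all above Pre. The level in Mid was 2.20 times that in Pre (log2 fold change 1.14 ± 0.24 SE, edgeR FDR 0.00073).

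The same Mid libraries lay at the extremes of these genes. Mid replicate 6 had the highest Igf1 and Igfbp5 and the lowest Insr and Irs2 of the 8, and so lay nearest to Pre for all 4 genes. Mid replicate 7 had the lowest Igf1, the highest Insr and the highest Irs2, and its Igfbp5, at 81.1, was next to the lowest. Without replicate 6 the same 4 promoters were called.

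The kinase end of the route was flatter. Pik3r1 averaged 120.1 ± 19.7 (SD, n = 4) CPM in Pre and 107.7 ± 20.7 (SD, n = 8) in Mid, with a log2 fold change of -0.16 (95% interval -0.43 to 0.11). Akt1 averaged 45.6 ± 7.55 in Pre and 48.2 ± 8.10 in Mid. The upstream Akt2 promoter, at 53.1 ± 1.68 and 54.0 ± 4.06, had the tightest interval of the 8, -0.11 to 0.15 on the log2 scale, and its downstream promoter averaged 11.1 ± 2.33 in Pre and 8.70 ± 3.34 in Mid.

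**Figure D2:**
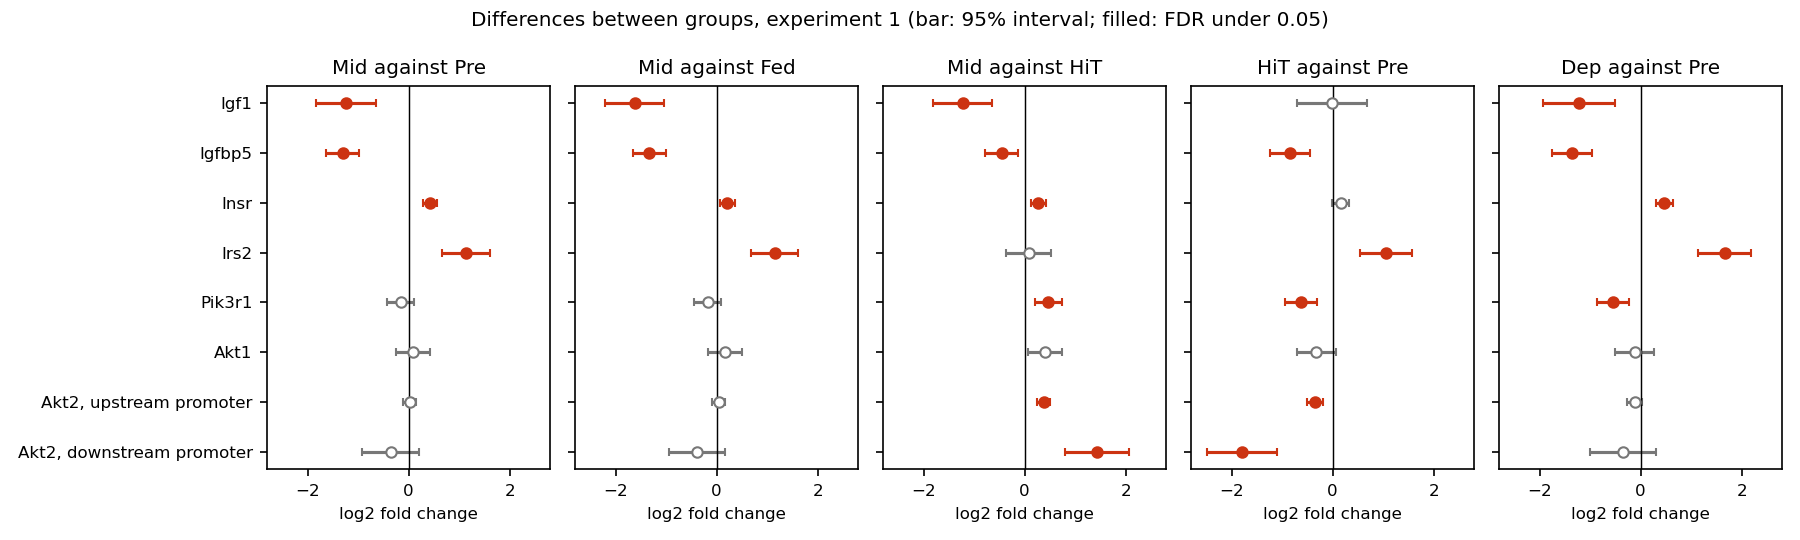
Log2 fold change of each member promoter in 5 comparisons of experiment 1, with the edgeR estimate as a point and its 95% interval as a bar; filled points have an FDR under 0.05. Igf1 is shifted in Mid and Dep but lies at zero in HiT against Pre, Irs2 is raised in every fasted group, and the Akt2 promoters differ only where HiT is compared.

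Refeeding was examined by comparing Post with Mid, and the 4 promoters moved back. Igf1 and Igfbp5 rose and Insr and Irs2 fell, so that 4 of 8 members were called where 35.0% of all promoters were. This comparison and the previous one share the Mid libraries. Igf1 in Post gave 14.2, 10.1, 21.0 and 16.6 CPM and rose by a log2 fold change of 1.36 ± 0.30 (FDR 0.00098). Igfbp5 gave 279, 190.1, 272 and 224 and rose by 1.16 ± 0.17 (edgeR FDR 7.5e-06).

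Post levels of Igfbp5 lay above all 8 Mid libraries, whereas those of Igf1 overlapped with Mid replicate 6 alone. Insr in Post gave 51.0, 53.2, 51.6 and 53.8 CPM, all below Mid, with a log2 fold change of -0.40 ± 0.08 (edgeR FDR 0.00022). Irs2 in Post gave 19.9, 18.8, 13 and 26.6, also all below Mid, with a log2 fold change of -1.64 ± 0.25 (edgeR FDR 1.2e-05). Post against Pre gave no called member by edgeR's quasi-likelihood test, at a background of 1.85%, none at an unadjusted p under 0.05, and none by DESeq2 or the likelihood ratio test. For Irs2 the interval of that difference still ran from -1.03 to 0.02 on the log2 scale, and it thus reached well below the Pre level.

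Mid was also compared with mice fed on the same day in the cold, which holds day and temperature. Called members were again 4 of 8, where 35.2% of all promoters were called: Igf1 and Igfbp5 were lower and Insr and Irs2 higher in Mid than in Fed. Fed libraries gave 10.1, 25.6, 17 and 21.6 CPM for Igf1, and the log2 fold change was -1.62 ± 0.30 (edgeR FDR 0.00014). For Igfbp5 they gave 215, 292, 344 and 241, and the log2 fold change was -1.34 ± 0.17 (edgeR FDR 1.3e-06).

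In all, 7 Mid libraries lay below every Fed library for Igf1, and all 8 did for Igfbp5. Irs2 in Fed gave 24.2, 26.5, 32.3 and 27.1 CPM, a narrow range well under Mid, with a log2 fold change of 1.15 ± 0.24 (edgeR FDR 0.00056). Insr in Fed gave 67.6, 59.4, 51.8 and 59.7, inside which 2 Mid libraries fell. That difference, 0.21 ± 0.07 on the log2 scale (FDR 0.031), was no longer called when only Mid and Fed libraries were fitted (FDR 0.12), under upper-quartile scaling (FDR 0.073) or without TMM (FDR 0.71). It was also lost without Fed replicate 2, 3 or 4 or Mid replicate 7, with FDR values of 0.055 to 0.14. Without Fed replicate 2 the count in Mid against Fed was therefore 3, and that in Fed against Pre stayed at 0. Fed against Pre gave no called member by edgeR, where 11.2% of all promoters were called, with 1 of 8 at an unadjusted p under 0.05 and none by DESeq2 or the likelihood ratio test. Without Fed replicate 3 Insr was called there (0.27, edgeR FDR 0.031).

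The next comparison set Mid against fasting without torpor at high ambient temperature. Here the members divided. Irs2, higher than Pre in both groups, did not differ detectably between them, Igf1 was lower in Mid than in HiT, and Akt2 and Pik3r1 were higher in Mid than in HiT. In Mid against HiT 6 of the 8 promoters were called, 4 higher and 2 lower, where 41.0% of all promoters were called, and in HiT against Pre 5 of 8 were called, where 33.4% were. The median log2 fold change of the members was 0.32 in Mid against HiT and -0.34 in HiT against Pre, beside 0.02 and 0.04 over all promoters, and these comparisons share the HiT libraries.

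Igf1 in HiT gave 16.1, 12.8, 8.45 and 19.4 CPM, a range that took in 3 of the Pre libraries. The difference from Pre was -0.01 (95% interval -0.70 to 0.68 on the log2 scale), and Mid lay below HiT with a log2 fold change of -1.23 ± 0.30 (edgeR FDR 0.0020). Of the 8 Mid libraries, 6 were below every HiT library. Irs2 in HiT gave 55.4, 44.9, 93.4 and 37.8, all above Pre (log2 fold change 1.06 ± 0.27, edgeR FDR 0.0029), and Mid against HiT was 0.08 with an interval of -0.37 to 0.52. All 8 Mid libraries fell inside the HiT range of Irs2, but HiT replicate 3 alone, at 93.4, set the top of that range. The next highest HiT library was at 55.4, and the medians were 50.2 in HiT and 60.4 in Mid. With 1 library left out, the estimate for HiT against Pre fell as low as 0.72. Its highest edgeR FDR was 0.027, without HiT replicate 3. Equal levels of Irs2 in HiT and Mid were therefore not shown.

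Igfbp5 lay between Pre and Mid. Its HiT libraries gave 166, 155, 105 and 167 CPM, all below Pre (log2 fold change -0.85 ± 0.20, edgeR FDR 0.0019). Mid was lower still by -0.46 ± 0.17 (FDR 0.034), but the ranges overlapped and this call was lost without any single HiT library but replicate 3, or without Mid replicate 2, 3, 4, 7 or 8, with FDR values of up to 0.149. Insr in HiT gave 59.4, 57.4, 59.0 and 53.3, lower than 7 of 8 Mid libraries (Mid against HiT 0.27 ± 0.07, edgeR FDR 0.0060).

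Akt2 encodes the AKT form that carries the insulin signal to glucose transport in muscle, and its upstream promoter gave 44.9, 39.6, 40.4 and 41.8 CPM in HiT. It gave 54.6, 51.1, 54.3 and 52.4 in Pre, and 47.3, 54.9 and 59.5 as the lowest, median and highest in Mid. The HiT values are below all 8 Mid and all 4 Pre libraries, with log2 fold changes of 0.37 ± 0.07 for Mid against HiT (edgeR FDR 9.1e-05) and -0.35 ± 0.08 for HiT against Pre (edgeR FDR 0.00092). The downstream promoter gave 3.06, 2.14, 2.69 and 5.13, against 13.7, 12.5, 9.13 and 9.18 in Pre and 3.51 to 12.8 (median 8.45) in Mid. This larger difference, 1.43 ± 0.32 for Mid against HiT (edgeR FDR 0.00089), overlapped in 1 Mid library. Pik3r1 gave 74.1, 76.9, 81.5 and 78.2 in HiT, below all Pre libraries (148, 103, 109.9 and 119) and 7 of 8 Mid libraries (74.0 to 141, median 109), with 0.47 ± 0.14 for Mid against HiT (edgeR FDR 0.0090).

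Because Akt2 has a pair of promoters, their ratio could be read within a library, free of scaling between libraries. The downstream promoter carried 17.3% ± 3.01 (SD, n = 4) of the Akt2 tags in Pre, 13.8% ± 5.15 (n = 8) in Mid, 16.1% ± 3.16 in Post, 17.6% ± 2.82 in Fed, 14.6% ± 4.54 in Dep and 7.17% ± 2.58 in HiT. An exact two-sided permutation test of the log2 ratio gave p = 0.0404 for Mid against HiT (difference 1.01), and 0.162 after adjustment over 4 comparisons. The other 3 comparisons had unadjusted p values of 0.186 to 0.376, so none of these 4 comparisons, each of which includes Mid, passed after adjustment. HiT did not overlap Pre, Post or Fed in this share, and those differences were not tested.

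**Figure D3:**
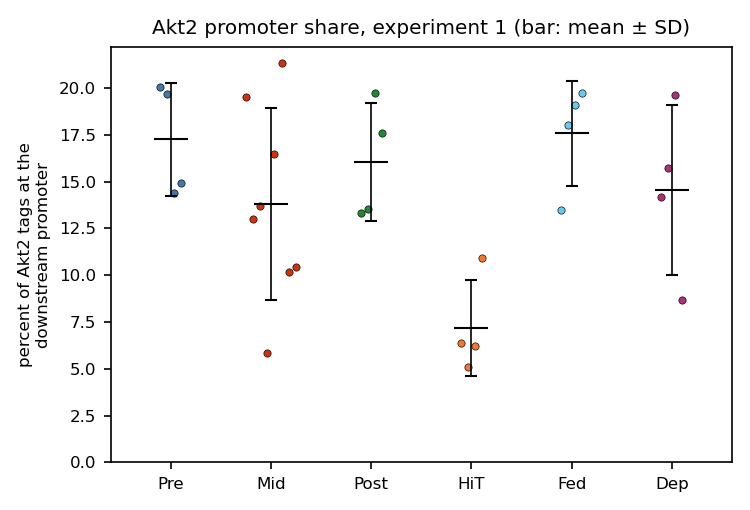
Share of Akt2 tags that started at the downstream promoter, in percent, for each library of experiment 1; the bar and whiskers are the mean and SD of the group. The 4 HiT libraries lie at 5.12% to 10.9%, and the 8 Mid libraries spread from 5.86% to 21.4%.

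Markers of other cells moved with HiT. All 5 measured macrophage markers were higher in HiT than in Pre and in Mid, with sums of 72.2 to 152 CPM in HiT against 26.5 to 43.2 in Pre and 29.2 to 46.5 in Mid. Sums of the 5 measured fibroblast markers were 2435 to 5186 in HiT against 2073 to 2734 in Pre and 1521 to 3072 in Mid. Only 1 of these 5 was called higher in HiT than in Pre, and 3 were lower in Mid than in HiT. Of the 6 slow fibre markers, 3 were lower in HiT than in Pre, with sums of 4463 to 5923 against 6072 to 7476, and 3 were higher in Mid than in HiT. Of the 6 fast fibre markers, 1 was lower in HiT than in Pre, with sums of 3638 to 3918 against 3862 to 5413. For the fast fibre list 2 markers were higher in Mid than in HiT. Of the 3 measured red cell markers, 2 were lower in HiT than in Pre. The part of these cells in the HiT levels of the members, Igf1 among them, was not tested. In whole muscle a change in the number of cells of a type and in RNA per cell cannot be told apart. Without HiT replicate 4 the calls in HiT against Pre stayed at 5, and those in Mid against HiT fell to 5 with the loss of Igfbp5.

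Fasted mice that were kept out of torpor by touching (Dep) were then set beside Mid mice. The study reports that metabolism in Dep resembled that of the Mid mice that were not torpid when sampled. No member differed between Dep and Mid by edgeR's quasi-likelihood test, where 2.03% of all promoters were called, although 3 of 8 had an unadjusted p under 0.05 and the lowest FDR was 0.13. DESeq2 and the likelihood ratio test called none either. Against Pre, 5 of 8 were called in Dep where 25.8% of all promoters were, 2 higher and 3 lower, and against Fed 5 of 8 where 38.6% were. Without Dep replicate 1 both counts stayed at 5 and Dep against Mid at 0, and without Fed replicate 2 Dep against Fed also stayed at 5. Insr lost its call in Dep against Fed without Fed replicate 3 (edgeR FDR 0.076) or Dep replicate 3 (FDR 0.070), and when only those groups were fitted (0.25, FDR 0.072).

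Igf1 in Dep gave 5.96, 7.76, 6.54 and 4.14 CPM, all below every Pre, Fed and HiT library (Dep against Pre -1.22 ± 0.36, edgeR FDR 0.014). This call did not hold without Pre replicate 2 (FDR 0.062) or without Dep replicate 4 (FDR 0.055). Igfbp5 was 107, 105.6, 109.6 and 95, the narrowest spread of any group for this gene, and lay below all Pre libraries (-1.36 ± 0.20, edgeR FDR 2.1e-05). Insr gave 68.4, 64.3, 78.7 and 74.0, and was higher than in Pre by 0.47 ± 0.09 (edgeR FDR 0.00020).

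Irs2 reached its highest group mean in Dep, with 74.1, 72.4, 138 and 66.8 CPM. All 4 libraries lay above Pre, with a log2 fold change of 1.66 ± 0.27 (edgeR FDR 5.0e-05), and 1.36 without Dep replicate 3, the library at 138. Dep against Mid for Irs2 was 0.52 ± 0.22 (edgeR FDR 0.19), and 0.22 without that library. Pik3r1 gave 96.7, 84.1, 68.6 and 80.2 in Dep, below all Pre libraries (-0.54 ± 0.16, edgeR FDR 0.013), a call that was lost without Pre replicate 1 (FDR 0.063). The difference of Pik3r1 between Dep and Mid was -0.39 ± 0.14 (edgeR FDR 0.13).

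Ordered by mean level, Igf1 ran Fed, Post, Pre, HiT, Dep and Mid, and the only neighbours whose ranges did not overlap were HiT and Dep, at 14.2 and 6.10 CPM. Irs2 ran Dep, Mid, HiT, Pre, Fed and Post, with the gap between HiT and Pre, at means of 57.9 and 27.8. The lowest HiT library, at 37.8, was only just above the highest Pre library, at 36.2. For Igfbp5 the gap lay between Post and HiT, at means of 241 and 148. Insr ran Dep, Mid, Fed, HiT, Post and Pre with each neighbouring pair overlapping.

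A second batch of mice was used to ask whether the differences recurred. In experiment 2 Igfbp5 fell and Irs2 rose between Pre and Mid, 2 of 8 members being called where 9.74% of all promoters were. Pre libraries gave 42.2 and 33.0 CPM for Irs2, and Mid libraries 141, 78.6, 66.4, 111 and 86.6, a log2 fold change of 1.36 ± 0.29 (edgeR FDR 0.016). For Igfbp5 Pre gave 294 and 237, and Mid 94.3, 161, 129, 114 and 86.1, a log2 fold change of -1.19 ± 0.22 (edgeR FDR 0.0088). Neither gene overlapped between the groups, but with so few Pre libraries such a separation says little.

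Igf1 gave 9.51 and 17.2 in Pre and 3.01, 11.1, 6.31, 5.01 and 5.29 in Mid. Its log2 fold change of -1.10 ± 0.38 did not pass in edgeR's quasi-likelihood test (FDR 0.10), but did with DESeq2 (FDR 0.041) and without Mid replicate 10 (FDR 0.014), the one library above the lower Pre value. Insr, at 33.6 and 29.4 in Pre and 31.3 to 46 in Mid, did not pass either (0.28 ± 0.16, edgeR FDR 0.33). With only 2 Pre libraries, the loss of Pre replicate 5 removed both calls, with FDR values of 0.083 for Irs2 and 0.10 for Igfbp5, and the loss of Pre replicate 6 removed that of Irs2 (FDR 0.14).

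Refeeding in experiment 2 gave 3 of 8 called members where 16.4% of all promoters were called. Igf1 rose to 15.9, 11.8 and 17.4 CPM (log2 fold change 1.27 ± 0.34, edgeR FDR 0.026), and Igfbp5 to 157, 201 and 227 (0.74 ± 0.20, edgeR FDR 0.028). Irs2 fell to 30.1, 31.8 and 21.6 (-1.79 ± 0.25, edgeR FDR 0.00089). All 3 Post libraries and 1 Mid library were on lane 4 and the others on lane 3, and with lane as a term in the fit Irs2 kept its call. The estimates for Igf1 and Igfbp5 were then larger, at 1.51 ± 0.60 and 1.18 ± 0.31, but with wider errors they were no longer called (edgeR FDR 0.21 and 0.061). Igf1 was not called without Mid replicate 12 or 13 or Post replicate 5 or 7 (FDR 0.057 to 0.086), nor Igfbp5 without Mid replicate 9 or 12 or Post replicate 6 or 7 (FDR 0.059 to 0.11). Post against Pre gave none by edgeR, at a background of 0.111%, none at an unadjusted p under 0.05 and none by DESeq2. Whether the change from Pre to Mid differed between batches was tested as an interaction: no member passed (lowest edgeR FDR 0.997, none at an unadjusted p under 0.05, none by DESeq2 or the likelihood ratio test) at a background of 0%, and the difference was 0.17 ± 0.58 for Igf1 and 0.25 ± 0.34 for Irs2.

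**Figure D4:**
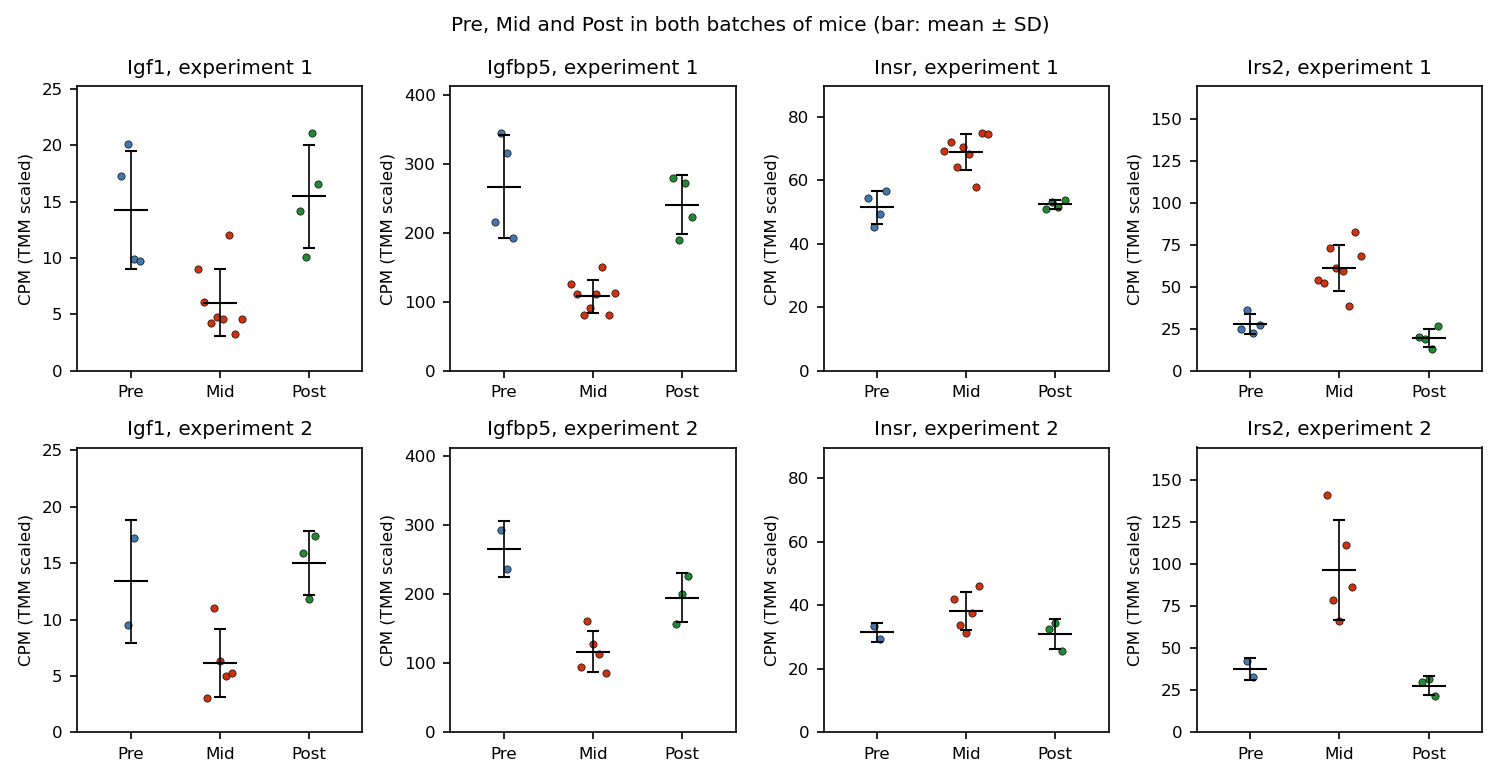
Levels of Igf1, Igfbp5, Insr and Irs2 in Pre, Mid and Post libraries of both batches of mice, in CPM after TMM scaling within each experiment; points are libraries, and the bar and whiskers are the mean and SD. Irs2 rises in Mid in both rows, from 27.8 to 61.1 on average in experiment 1 and from 37.6 to 96.8 in experiment 2.

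Igf1r and Irs1, the receptor and adaptor without a promoter under the rule, did have clusters a little farther off, and their values are given as a description only. The Igf1r cluster at chr7:67951649-67952137 had its main start base 929 bp from the nearest GENCODE end and 359 bp from the RefSeq start. It averaged 10.6 ± 2.12 (SD, n = 4) CPM in Pre, 20.9 ± 5.36 (n = 8) in Mid and 8.13 ± 1.61 in Post. In HiT it averaged 14.3 ± 2.13, in Fed 14.3 ± 2.74 and in Dep 14.8 ± 2.10. Of the 8 Mid libraries, 7 lay above every Pre, HiT, Fed and Dep library. The nearer Irs1 cluster, at 508 bp, spanned the annotated 5′ end itself and averaged 40.3 ± 3.34 in Pre, 24.8 ± 6.02 in Mid, 38.3 ± 2.37 in Post, 26.1 ± 1.29 in HiT, 47.8 ± 5.31 in Fed and 32.3 ± 2.55 in Dep. For Irs1, 7 of 8 Mid libraries lay below every Pre library, whereas for Irs2 all 8 lay above. In experiment 2 the Irs1 cluster averaged 34.5 ± 3.99 (n = 2) in Pre and 24.0 ± 3.35 (n = 5) in Mid.

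The other genes of the pathway were read at their main promoter from a list of 69 in 5 roles, of which 54 had a promoter. In Mid against Pre 15 rose and 8 fell, 42.6% of the 54 against the background of 30.2%, and their median log2 fold change was 0.05, against 0.01 over all promoters. Here and below the background covers every promoter tested, with weak, secondary and unannotated ones among them. The pathway genes were read only at their most used annotated promoter, so these shares are not like for like and no excess was tested. Of 9 measured genes of the ligand axis, Igfbp3, another IGF-binding protein, rose by 0.75 ± 0.18 on the log2 scale, from 12.2 to 20.5 CPM. Stat5b, a transcription factor downstream of the growth hormone receptor, fell by 0.65 ± 0.21, and Socs2, a feedback inhibitor of that receptor, fell by 0.60 ± 0.20.

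Among the 12 measured receptors, adaptors and inhibitors, 2 rose and 3 fell. The genes that fell were Grb14, by 0.89 ± 0.15, Grb10, by 0.58 ± 0.12, and Socs3, by 0.58 ± 0.22, whose products bind and restrain the insulin receptor or its adaptors. Cblb, a ubiquitin ligase that acts on IRS1 in muscle, rose by 0.94 ± 0.12 (15.1 to 28.9 CPM), and Ptpn1, the tyrosine phosphatase that dephosphorylates the insulin receptor, rose by 0.38 ± 0.11. Genes described as inhibitors thus moved both ways.

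Of 7 measured PI3-kinase and lipid phosphatase genes, 2 rose and none fell: Pik3ip1, a membrane inhibitor of the kinase (0.44 ± 0.16), and Inpp4b, a lipid phosphatase (0.44 ± 0.15). Among 8 genes of Akt control, 3 rose, namely Pdpk1, the kinase that activates AKT (0.70 ± 0.13), Ppp2ca, a phosphatase subunit (0.63 ± 0.19), and Mtor, the kinase of the mTOR complexes (0.54 ± 0.09). The pseudokinase genes Trib2 and Trib1 fell by 0.52 ± 0.14 and 0.32 ± 0.11.

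Akt control thus had 62.5% of its genes called, with 3 higher and 2 lower of only 8. The Akt targets and outputs had 44.4%, with 7 higher and 1 lower of 18. Over all promoters, main or not, the share was 30.2%. Foxo1 and Foxo3, the transcription factors that AKT keeps out of the nucleus, rose by 1.14 ± 0.20 and 1.10 ± 0.17, and Slc2a1, the glucose transporter GLUT1, by 1.09 ± 0.20. Slc2a4, the insulin-regulated transporter GLUT4, fell by 0.24 ± 0.07, from 294 ± 15.4 (SD, n = 4) to 249.5 ± 19.1 (SD, n = 8) CPM. Foxo1 was not raised in HiT, at 24.5 ± 2.24 against 26.6 ± 2.38 in Pre and 58.5 ± 16.2 in Mid (Mid against HiT 1.26 ± 0.20, edgeR FDR 1.6e-05), whereas Foxo3 was at 38.5 ± 2.27 in HiT and 48.2 ± 10.2 in Mid.

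**Figure D5:**
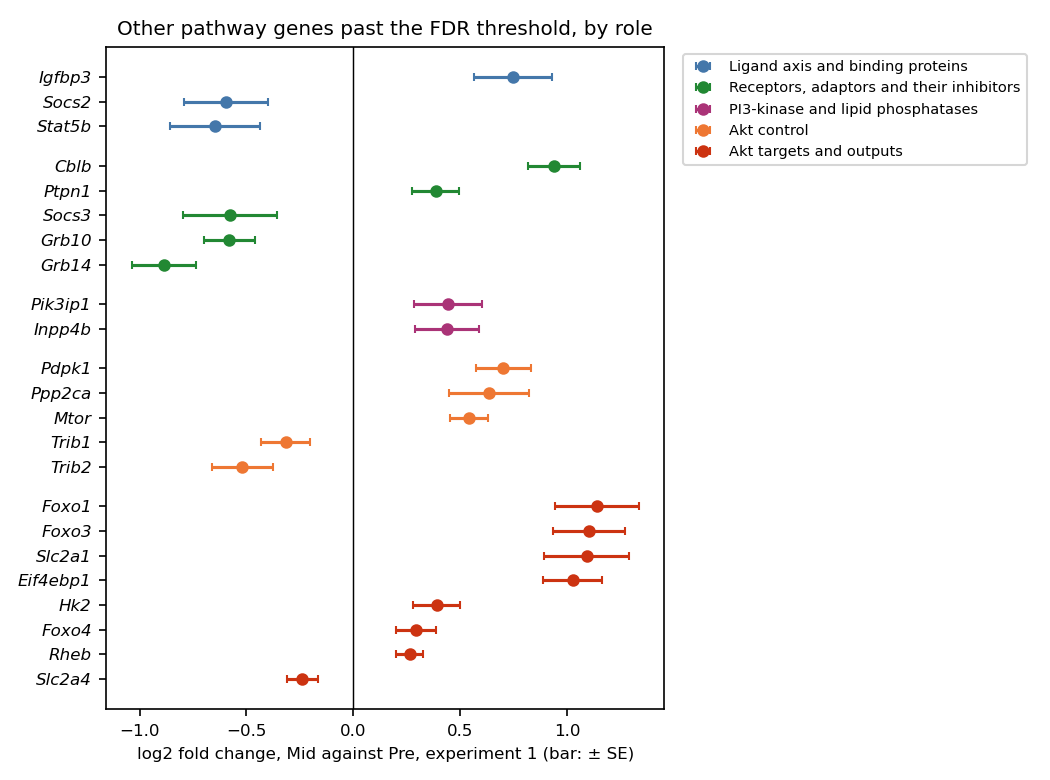
Log2 fold change of the 23 other pathway genes that passed an FDR of 0.05 in Mid against Pre of experiment 1, grouped by role, with bars of 1 SE. In the group of Akt targets and outputs 7 genes lie to the right of zero and Slc2a4 alone lies to the left.

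In Mid against HiT 15 of the 54 were higher and 11 lower, 48.1% against 41.0% of all promoters, and in Mid against Fed 15 were higher and 12 lower, beside 35.2% called over all promoters. Socs3 stood out in HiT, at 13.3 ± 4.77 CPM against 3.44 ± 0.90 in Pre and 2.31 ± 0.64 in Mid (Mid against HiT -2.53 ± 0.21, edgeR FDR 1.1e-09), in the group where the macrophage markers were also higher. In Dep against Mid 1 of 54 was called, 1.85% against 2.03% of all promoters. In experiment 2, 15 of the 54 were called in Mid against Pre, 27.8% against 9.74% of all promoters. Of these, 12 were also called in experiment 1, all in the same direction, which is 80.0% of the calls of experiment 2 and 52.2% of those of experiment 1. Over all promoters 884 were called in both, again all in the same direction, which is 84.0% and 27.2% of the calls, so the recurrence of the experiment 2 calls was no higher for the pathway genes. The 12 included Foxo1, Foxo3, Cblb, Mtor, Pdpk1, Igfbp3 and Stat5b.

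The promoters whose levels ran most like those of the 4 called members were sought over the 28 libraries of experiment 1 among 9440 promoters, as a description. For Igf1 they were Alg2, Ttyh2 and Col15a1, with Pearson r of 0.93, 0.93 and 0.92. For Igfbp5 they were Nrep, Smad3 and Abi3bp (0.92, 0.92 and 0.91), and for Insr they were Gpr157, Smg1 and Usp53 (0.93, 0.92 and 0.91). For Irs2 they were Sgms1, Maff and Tmem140, each at 0.93. These libraries share the 6 groups, and with the group means removed r was 0.56 to 0.80 for the 12 pairs.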

How the data were processed

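The deposited tag counts were made by the authors from non-amplified CAGE libraries of soleus RNA: reads were mapped to mm10 (GRCm38) with BWA and HISAT2, and start sites were clustered with PromoterPipeline (the versions used are not given in the sources used here). The authors also deposited TPM values, tags scaled to each library's total, which were used here only to obtain the share of tags inside clusters (93.1% to 95.6%). No comparison columns were present, and all 38 pairs of columns were assigned through the labels.

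Members were found by the distance rule with GENCODE vM21. Counts of clusters with a tag in any library were tested with edgeR 4.0.16 (TMM, quasi-likelihood F test, group only, two-sided, Benjamini-Hochberg over all clusters tested, threshold 0.05), all groups of an experiment in 1 fit. The SE is the log2 fold change divided by the square root of F. Replicates are separate mice, and no pair of libraries agreed within sampling noise (lowest chi-square per promoter 12.45 over 72 pairs). The ratio of the Akt2 promoters used tags plus 0.5 and an exact permutation test.

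The text names every member promoter, with library levels in the groups compared for those called in Mid against Pre, HiT or Fed (lowest, median and highest for the 8 Mid libraries of experiment 1), up to 3 pathway genes per role and direction with the largest change in Mid against Pre, and the 3 promoters most correlated with each called member. Socs3 in HiT and the members of the shared pathway calls were chosen after their values were seen. The members, the pathway list and the cell type markers were chosen with earlier results of these data known. Alternatives were DESeq2 1.42.0, the likelihood ratio test, filterByExpr, other or no scaling, fewer or more libraries in the fit, the replicate number as a block, sequencing lane as a term, another pseudocount and leaving out each library. The test was checked on simulated data. R 4.3.3 and Python 3.11.15 were used, with promoter sequences from RefSeq on GRCm38.p6. Matching to RefSeq promoter windows found 6 of the 7 genes with a promoter, all but Insr.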

Additional observations from a re-analysis of the deposited data

Results flagged for a closer look

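Among 56 groups of 4, 5 or 8 libraries over the member promoters, 1 held a library far from the rest. Irs2 in Dep replicate 3 stood at 138.379 CPM, whereas the next highest Dep library was at 74.1. The gap was 0.899 of the range of the 4 Dep libraries. Chance flags about 1 in 20 such groups. Without this library Irs2 was still higher in Dep than in Pre, with a log2 fold change of 1.36 (edgeR FDR 0.00038). The same library also had the highest Insr (78.7 CPM), Igfbp5, Akt1 (54.9) and Akt2 (both promoters) of its group, and the lowest Pik3r1 (68.6). The 6 adipocyte markers summed to 506 CPM in it, against a median of 178 and a lowest of 128 over the Dep libraries, and their part in the Irs2 level was not tested.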

How the results depend on the processing

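No called change of a member promoter changed sign. Of 274 values of the 38 called results under the alternatives, 259 kept their call and 15 lost it, and of 974 values with 1 library left out 946 kept it and 28 lost it. Insr was the member that depended most on scaling: without TMM it was not called in Mid against Pre, Post against Mid, Mid against HiT, Mid against Fed (0.10), Dep against Pre (0.30) or Dep against Fed (0.05). In Mid against HiT the call of Igfbp5 was lost without TMM (-0.38) and with only those groups fitted (-0.46), and DESeq2 added Akt1 (0.42, FDR 0.036). Irs2 in HiT against Pre missed the threshold without TMM (0.88, edgeR FDR 0.058).

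Called members in Post against Mid of experiment 2 fell from 3 to 1 with lane as a term, although the estimates of the lost genes rose (Igf1 from 1.27 to 1.51, Igfbp5 from 0.74 to 1.18), and ran from 1 to 3 as each library was left out, with 1 remaining without Mid replicate 12 or Post replicate 7. Mid against Pre of experiment 2 ran from 0 to 3, with 0 without Pre replicate 5 and 1 without Pre replicate 6, and Fed against Pre of experiment 1 from 0 to 1. With the replicate number as a block, Insr in Mid against Fed lost its call (0.21, edgeR FDR 0.067), which left 3 members, and no other member call changed. Deviations of same-numbered libraries were correlated with r from -0.509 to 0.463 over 60 pairs. The labels do not say that the numbers pair the mice, and so wide a spread of r cannot decide it. In experiment 2 only Post against Pre could be fitted with the block. The rule gave 7 promoters at 100 bp in place of 500, and 9 when clusters spanning an annotated end or RefSeq starts were added, both chosen after seeing the data.

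Calls over all promoters were fewer without TMM: 1458 instead of 3253 in Mid against Pre, 1630 instead of 3771 in Post against Mid, 2323 instead of 4422 in Mid against HiT, 2181 instead of 3797 in Mid against Fed, 1974 instead of 3604 in HiT against Pre, 1444 instead of 2783 in Dep against Pre, 6 instead of 1207 in Fed against Pre, 9 instead of 219 in Dep against Mid and 21 instead of 199 in Post against Pre. Dep against Mid gave 343 by the likelihood ratio test, 479 by DESeq2, 407 with the block and 2 with only those groups. Post against Pre gave 326 by DESeq2 and 731 with all 38 libraries, and Fed against Pre 631 with only those groups. In experiment 2, lane as a term gave 485 instead of 1772 in Post against Mid, and Post against Pre gave 116 by the likelihood ratio test, 175 by DESeq2 and 0 with lane, block or only those groups, instead of 12. The interaction gave 2 and 7 by these tools.

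The share of calls that were higher was 51.0% in Mid against Pre, but 36.6% without TMM and 35.7% with upper-quartile scaling. The same shares were 47.1%, 23.3% and 36.7% in Mid against Fed, 55.4%, 29.6% and 41.3% in HiT against Pre, and 53.1%, 25.3% and 38.9% in Dep against Pre. In Dep against Fed 48.2% became 17.1% without TMM. In Post against Mid 49.9% became 63.3% with upper-quartile scaling, and in experiment 2 47.2% became 62.2% without TMM and 58.3% with upper-quartile scaling. Leaving out TMM moved the median log2 change over all tested promoters to 0.11 in Mid against HiT, -0.12 in Mid against Fed, -0.13 in HiT against Pre, -0.18 in Dep against Pre and -0.23 in Dep against Fed. Depth limits Igf1 and the downstream Akt2 promoter most, with as few as 28 and 59 tags in a library of experiment 2.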
